A study of Mus musculus with 18 samples.

Results

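The genes described here are 10 endothelial identity genes of the mouse, Pecam1, Cdh5, Vwf, Cldn5, Emcn, Plvap, Sele, Selp, Esam and Eng, followed in the floating adipocyte fraction and the pelleted stromal-vascular fraction (SVF) of 3 fat depots. They were chosen by name, as the non-control probes of the array that carry these gene names, and all 10 passed the filter on dim signals and are among the 19217 genes tested. Together they have 15 probes, of which 14 passed, and each gene is given by its brightest passing probe. The study separated brown, inguinal and epididymal fat of young adult male C57BL/6 mice with collagenase, let the adipocytes float, pelleted the SVF, lysed its red cells, and hybridised the RNA of each fraction to 1-colour arrays. The groups are brown adipocytes, brown SVF, inguinal adipocytes, inguinal SVF, epididymal adipocytes and epididymal SVF, with 3 biological replicates each, 18 arrays in all. The labels name no treatment and no engineered allele in any group. The labels do not say how many animals went into a replicate or whether both fractions of a replicate came from the same animals, so p-values measure the spread between these samples. The question asked is how high endothelial RNA stands in the floated adipocyte fraction and in the SVF, each relative to its own RNA. Levels are scaled within each array and no RNA yield was used, so the split of endothelium between the fractions was not measured.

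Levels are log2 of the array's processed signal minus the same array's 75th percentile of that signal, so 0 is the level of a fairly bright probe and a difference of 1 is a factor of 2. A level is comparable between arrays for 1 probe, not between probes. Differences are adipocyte minus SVF unless stated, with the standard error (SE) of limma, and a gene is said to have risen or fallen where the p adjusted over all 19217 genes by Benjamini-Hochberg was under 0.05. The 75th percentile signal ran between 338 and 1259 units, and between 49.6% and 87.9% of spots were well above background on an array. Brown adipocytes and brown SVF shared their slides, scan days and scanner software version, replicates 1 and 2 on one slide and replicate 3 on another. The brown adipocyte arrays were dimmer, with 75th percentile signals of 338, 475 and 440 units, against 797, 732 and 995 in brown SVF. Their shares of spots well above background were 49.6%, 56.9% and 58.5%, against 67.2%, 72.2% and 69.2%. Their lowest levels well above background were -3.50, -4.34 and -4.30, against -5.71, -5.92 and -5.85 in brown SVF. The white adipocyte arrays lay on slides of their own, read with another software version, so in inguinal and epididymal fat the fraction cannot be told apart from slide, scan day and software. Inguinal SVF replicate 1 stands apart because its level of the Y-linked gene Ddx3y was -6.50, against 0.88 and 1.55 in the other inguinal SVF replicates. That is below the lowest level well above background on its array (-4.24), although the mice are given as male. The reason was not tested. Epididymal adipocyte replicate 3 stands apart because its level of the brown fat gene Ucp1 was 4.51, against -3.34 and -1.05 in the other replicates.

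Endothelial cells line blood and lymph vessels, and fat is densely supplied with capillaries that lie against the adipocytes. Pecam1, Cdh5 (VE-cadherin), Esam and Cldn5 (claudin-5) encode proteins of the contacts between endothelial cells. Emcn (endomucin) is a surface sialomucin, and Eng (endoglin) is a co-receptor for ligands of the TGF-beta family. Vwf (von Willebrand factor) and Selp (P-selectin) are stored in Weibel-Palade bodies and are also made by megakaryocytes. Plvap forms the diaphragms of fenestrae and caveolae, and Sele (E-selectin) is an adhesion receptor that cytokines induce in endothelium. Floated adipocytes can carry pieces of vessel with them, and markers of endothelium are a usual check of such a fraction.

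Vwf had the largest difference between fractions, and the probes that carry it are shown first, together with those of Pecam1 and Selp, because the array measures each gene through stretches of 60 bases. The second Vwf probe (mm8, chr6:125651459-125651518, plus strand) lies upstream of the brighter one at chr6:125652152-125652211 and gives a separate reading of the same transcript. The Pecam1 probe (mm8, chr11:106497165-106499018, minus strand) covers more genome than its own length, so that it joins separate blocks of the genome. The second Selp probe lies at chr1:165978102-165978161 on the plus strand, and the main one at chr1:165986204-165986263. No transcript model of that build was used here, so exon or UTR positions are not given. The sequences are those of the deposited array files, 5′ to 3′, with no part singled out.
Vwf probe: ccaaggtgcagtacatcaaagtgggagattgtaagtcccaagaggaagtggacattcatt
Pecam1 probe: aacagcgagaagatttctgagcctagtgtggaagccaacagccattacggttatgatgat
Selp probe: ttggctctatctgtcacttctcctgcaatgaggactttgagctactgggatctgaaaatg

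Promoters were read from the RefSeq table of GRCm38.p6, which matched 5 of the 10 genes, Cldn5, Emcn, Eng, Sele and Selp. The 250 bases before the start are printed for Sele, whose intervals below are the widest, and for Emcn, one of the genes with the smallest differences between fractions. In Sele the capitals mark the outline of a kappa B element (GGG and CC with 5 bases of any kind between them, either strand), found once, 145 bases before the start (GRCm38.p6, chr1:164047984-164048233, plus strand). In Emcn they mark the ETS core GGAA on either strand, found 4 times, between 173 and 67 bases before the start (chr3:137340828-137341077, plus strand).
Sele promoter: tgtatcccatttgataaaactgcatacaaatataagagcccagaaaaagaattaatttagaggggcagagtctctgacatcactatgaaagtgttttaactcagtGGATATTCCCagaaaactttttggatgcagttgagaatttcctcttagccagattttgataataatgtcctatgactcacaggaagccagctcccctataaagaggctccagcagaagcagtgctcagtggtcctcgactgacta
Emcn promoter: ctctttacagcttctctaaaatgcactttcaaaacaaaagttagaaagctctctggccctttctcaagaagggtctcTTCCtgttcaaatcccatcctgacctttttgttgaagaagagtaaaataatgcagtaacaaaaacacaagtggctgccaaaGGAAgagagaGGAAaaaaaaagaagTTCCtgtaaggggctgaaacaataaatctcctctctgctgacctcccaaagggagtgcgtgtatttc
Of the 32851 promoters of the table, 93.4% hold GGAA and 45.8% hold the kappa B outline in the same 250 bases, so neither match sets these genes apart. GGAA was found 3 times in Sele and Eng, 6 times in Selp and 0 times in Cldn5, and the kappa B outline 2 times in Cldn5, 3 times in Eng, once in Selp and 0 times in Emcn, counting both strands and overlapping matches.

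In brown fat, 2 of the 10 genes were lower in the adipocyte fraction, Vwf and Plvap, and the other 8 did not pass. For comparison, 21.1% of all genes tested passed there, 12.7% higher and 8.35% lower. In inguinal fat 0 of the 10 passed in limma, where 14.0% of all genes did, 9.16% higher and 4.81% lower. In epididymal fat 0 of the 10 passed, where 25.0% of all genes did, 18.1% higher and 6.91% lower. At an unadjusted p under 0.05 the count was 4 for brown fat and 0 for each white depot. The share of all genes at that unadjusted threshold is not given here. The median difference over the 10 genes was -0.67 for brown, 0.20 for inguinal and -0.21 for epididymal fat, beside a median of 0.15, 0.01 and 0.07 over all genes. In bulk RNA, fewer cells of a type and less RNA per cell cannot be told apart.

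**Figure D1:**
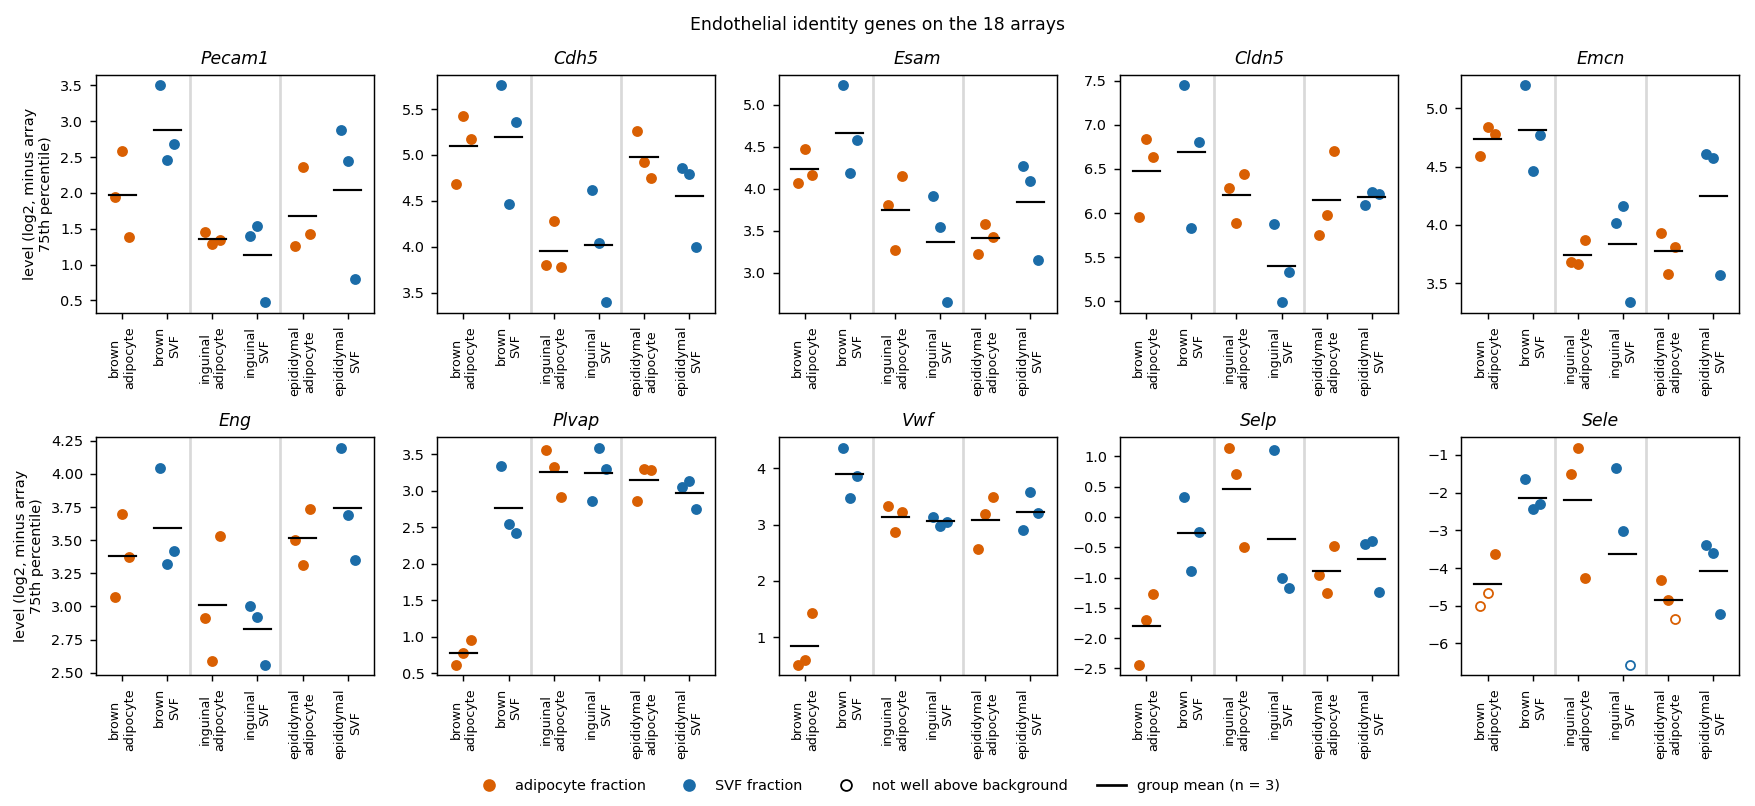
Level (log2, minus the array's 75th percentile) of the 10 genes on each of the 18 arrays, adipocyte arrays in orange and SVF arrays in blue, with the mean of each group (n = 3) as a bar. Plvap and Vwf of brown adipocytes lie below the other 15 arrays; open circles are signals not well above background.

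None of the 4 junction genes passed between floated adipocytes and SVF in any depot. Cdh5 had levels of 4.69, 5.42 and 5.17 in brown adipocytes, against 5.76, 4.47 and 5.35 in brown SVF. In inguinal fat they were 3.80, 4.28 and 3.78 in adipocytes, against 4.62, 4.04 and 3.39 in SVF. In epididymal fat they were 5.26, 4.92 and 4.75 in adipocytes, against 4.86, 4.80 and 3.99 in SVF. The fractions overlapped in each depot. The Cdh5 signal of the adipocyte fraction was 0.93 times that of the SVF in brown fat (difference -0.10 ± 0.38, SE, 95% confidence interval -0.91 to 0.71), 0.96 times in inguinal fat (-0.06, interval -0.87 to 0.74) and 1.34 times in epididymal fat (0.43, interval -0.38 to 1.23). A difference of 2-fold is therefore outside the interval in brown and inguinal fat only. A second, dimmer Cdh5 probe differed by -0.67, 0.89 and -0.51 in brown, inguinal and epididymal fat, and did not pass (adjusted p = 0.469 in brown fat).

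Pecam1, the platelet and endothelial adhesion molecule CD31, had levels of 1.95, 2.59 and 1.38 in brown adipocytes, against 3.50, 2.46 and 2.68 in brown SVF. Brown adipocyte replicate 2 reached into the SVF range and the others lay below it. In inguinal fat the levels were 1.45, 1.28 and 1.34 in adipocytes, against 1.40, 1.53 and 0.47 in SVF, and in epididymal fat 1.26, 2.37 and 1.42 in adipocytes, against 2.88, 2.44 and 0.80 in SVF. Its difference of -0.91 in brown fat did not pass (interval -1.98 to 0.16, adjusted p = 0.236), and the intervals in inguinal fat (0.22, -0.85 to 1.30) and epididymal fat (-0.36, -1.43 to 0.72) were as wide. A dimmer Pecam1 probe, designed on a clone, differed by -0.24, -1.56 and -1.57 in the 3 depots, and was higher in brown than in inguinal adipocytes by 2.51 (adjusted p = 0.0364). It was well above background on 1 of 3 inguinal and 2 of 3 epididymal adipocyte arrays, so its levels there are close to the detection limit.

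Esam, a junctional immunoglobulin-family protein, had levels of 4.07, 4.47 and 4.17 in brown adipocytes, against 5.23, 4.19 and 4.58 in brown SVF. In inguinal fat they were 3.80, 3.27 and 4.15 in adipocytes, against 3.91, 3.54 and 2.65 in SVF, and in epididymal fat 3.22, 3.58 and 3.42 in adipocytes, against 4.27, 4.09 and 3.15 in SVF. The fractions overlapped in each depot, with differences of -0.43 for brown fat (interval -1.23 to 0.38), 0.38 for inguinal fat (-0.43 to 1.18) and -0.43 for epididymal fat (-1.23 to 0.38). Cldn5, the main claudin of endothelial tight junctions, had levels of 5.95, 6.84 and 6.64 in brown adipocytes, against 7.45, 5.84 and 6.81 in brown SVF (difference -0.22, interval -1.05 to 0.61). In epididymal fat they were 5.75, 5.98 and 6.70 in adipocytes, against 6.09, 6.23 and 6.21 in SVF (difference -0.04, interval -0.86 to 0.79). Both of these pairs overlapped. In inguinal fat its levels were 6.28, 5.89 and 6.45 in adipocytes, against 5.87, 4.99 and 5.33 in SVF, which do not overlap. That difference of 0.81 did not pass (interval -0.02 to 1.64, adjusted p = 0.177), and 16.6% of all genes had adipocyte levels wholly above those of the SVF in that depot.

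Neither surface glycoprotein passed in any depot. Emcn had levels of 4.59, 4.84 and 4.78 in brown adipocytes, against 5.20, 4.46 and 4.77 in brown SVF, a difference of -0.08 (interval -0.72 to 0.56). In inguinal fat its levels were 3.69, 3.66 and 3.87 in adipocytes, against 4.02, 4.16 and 3.33 in SVF. In epididymal fat they were 3.93, 3.58 and 3.81 in adipocytes, against 4.60, 4.58 and 3.57 in SVF. The adipocyte replicates of Emcn lay within the span of the SVF replicates in each depot. The differences of the white depots were -0.10 in inguinal fat (interval -0.74 to 0.54) and -0.48 in epididymal fat (interval -1.12 to 0.16). Eng had levels of 3.07, 3.70 and 3.37 in brown adipocytes, against 4.05, 3.32 and 3.42 in brown SVF. In inguinal fat they were 2.91, 2.59 and 3.53 in adipocytes, against 3.00, 2.92 and 2.56 in SVF, and in epididymal fat they averaged 3.52 ± 0.21 in adipocytes, against 3.74 ± 0.43 in SVF (SD, n = 3 each). Its fractions overlapped in each depot, with differences of -0.21 in brown (interval -0.87 to 0.44), 0.19 in inguinal (-0.47 to 0.84) and -0.23 in epididymal fat (-0.88 to 0.42).

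Over all 10 genes, the 95% interval lay inside a 2-fold change either way for 3 genes in brown fat (Cdh5, Emcn and Eng), 5 in inguinal fat (Cdh5, Vwf, Emcn, Plvap and Eng) and 4 in epididymal fat (Vwf, Cldn5, Plvap and Eng). It lay inside 4-fold for 6, 8 and 9 genes.

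**Figure D2:**
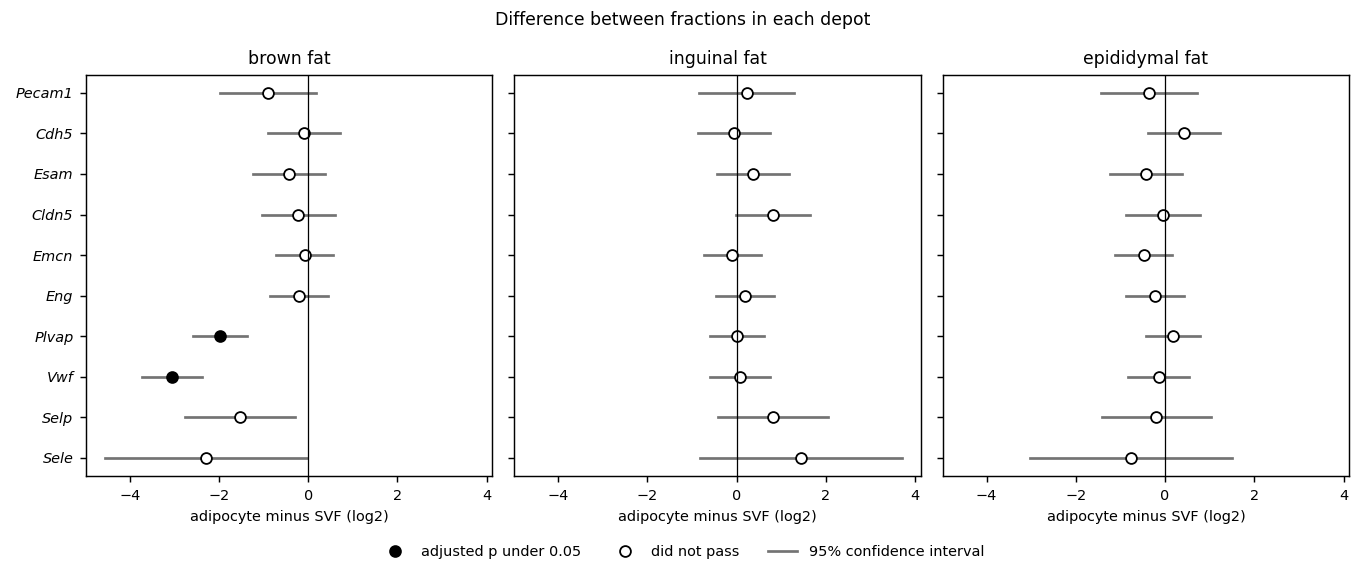
Difference adipocyte minus SVF (log2) of the 10 genes in brown, inguinal and epididymal fat, with 95% confidence intervals; filled points have an adjusted p under 0.05. Vwf (-3.06) and Plvap (-1.99) in brown fat are the filled points, and the intervals of Sele are the widest.

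Vwf fell in brown fat. Its levels were 0.51, 0.60 and 1.43 in brown adipocytes, against 4.37, 3.48 and 3.87 in brown SVF, and every adipocyte array lay below every SVF array. The difference was -3.06 ± 0.32 (adjusted p = 5.07e-05), an 8.33-fold lower signal in the adipocyte fraction. On the slide of replicates 1 and 2 the difference was -3.36 and on the slide of replicate 3 it was -2.45. The second Vwf probe, printed above, gave -3.06 ± 0.35 (adjusted p = 0.000104). One more Vwf probe was not well above background on any array.

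In the white depots the fractions overlapped in Vwf. Its levels were 3.33, 2.88 and 3.22 in inguinal adipocytes, against 3.14, 2.98 and 3.05 in inguinal SVF, a difference of 0.08 (interval -0.59 to 0.76). In epididymal fat they were 2.58, 3.19 and 3.49 in adipocytes, against 2.91, 3.58 and 3.20 in SVF, a difference of -0.15 (interval -0.82 to 0.53). The brown fraction difference minus the inguinal one was -3.14 ± 0.45 (SE, adjusted p = 0.00254), and minus the epididymal one it was -2.91 ± 0.45 (adjusted p = 0.00423). Such tests of the difference between depots passed with a lower value for 0.729% and 1.49% of all genes. Between inguinal and epididymal fat the fraction difference passed for 0 of the 10 genes in limma and for 0.0781% of all genes. At an unadjusted p under 0.05 the count of the 10 genes was also 0.

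Plvap, the diaphragm protein, also fell in brown fat. It had levels of 0.62, 0.77 and 0.95 in brown adipocytes, against 3.34, 2.54 and 2.42 in brown SVF, without overlap. The difference was -1.99 ± 0.28 (adjusted p = 0.00032), 3.96-fold lower, with -2.24 on one slide and -1.47 on the other. In inguinal fat the levels were 3.55, 3.32 and 2.92 in adipocytes, against 2.86, 3.59 and 3.30 in SVF, and in epididymal fat 2.86, 3.30 and 3.28 in adipocytes, against 3.05, 3.13 and 2.75 in SVF. Those differences were 0.01 (interval -0.59 to 0.62) and 0.17 (interval -0.43 to 0.77). The brown fraction difference minus the inguinal one was -2.00 ± 0.40 (adjusted p = 0.0275), and minus the epididymal one -2.16 ± 0.40 (adjusted p = 0.0120). Against inguinal fat the Plvap call was lost without brown SVF replicate 1, brown adipocyte replicate 1 or 2, or inguinal adipocyte replicate 1 or 2 (highest adjusted p = 0.083), and without both libraries that stand apart (-1.80, adjusted p = 0.0654).

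The selectins had the same sign in brown fat but did not pass. Selp had levels of -2.44, -1.70 and -1.27 in brown adipocytes, against 0.32, -0.88 and -0.25 in brown SVF, and Sele of -5.00, -4.65 and -3.63 in brown adipocytes, against -1.65, -2.44 and -2.30 in brown SVF. Neither pair of groups overlaps. The differences were -1.53 ± 0.57 for Selp (interval -2.76 to -0.31, adjusted p = 0.0736) and -2.30 ± 1.06 for Sele (interval -4.57 to -0.03, adjusted p = 0.150). Sele was well above background on 1 of the 3 brown adipocyte arrays, so that its lower levels there are close to the detection limit. The number of genes without overlap in brown fat was thus 4 of 10, all lower in adipocytes, where 17.1% of all genes lay wholly lower. Without both libraries that stand apart Selp passed too, which gave 3 genes in brown fat and 0 in each white depot.

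In the white depots the selectins scattered widely between replicates. Sele had levels of -1.51, -0.80 and -4.28 in inguinal adipocytes, against -1.34, -3.01 and -6.56 in inguinal SVF, a difference of 1.44 with an interval of -0.83 to 3.71. In epididymal fat they were -4.32, -4.84 and -5.36 in adipocytes, against -3.38, -3.60 and -5.22 in SVF. Replicate 3 was the lowest of each of these groups. Selp had levels of 1.15, 0.71 and -0.49 in inguinal adipocytes, against 1.11, -1.01 and -1.17 in inguinal SVF, and of -0.95, -1.26 and -0.47 in epididymal adipocytes, against -0.45, -0.40 and -1.24 in epididymal SVF. Its differences of 0.81 and -0.20 did not pass. The second Selp probe gave -1.79 ± 0.82 in brown fat (adjusted p = 0.156). That probe was well above background on 1 of the 3 brown adipocyte arrays, so its levels there are close to the detection limit. In inguinal fat it averaged -1.38 in adipocytes, against -2.68 in SVF. In epididymal fat it averaged -2.22 in adipocytes, against -2.87 in SVF, the opposite sign from the main probe.

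Among the adipocyte fractions, the depots differed in opposite directions for different endothelial genes. Brown and white adipocytes cannot be told apart from slide, scan day and software version in these comparisons. Against inguinal adipocytes, 4 of the 10 genes passed in brown adipocytes, 1 higher and 3 lower, where 6.33% of all genes rose and 5.84% fell. Vwf was 4.90-fold lower (difference -2.29, adjusted p = 0.000965), Plvap 5.59-fold lower (-2.48, adjusted p = 0.000432) and Selp was lower by a difference of -2.26 (adjusted p = 0.0206), while Emcn was higher by 1.00 (adjusted p = 0.0426). Against epididymal adipocytes, where 12.3% of all genes rose and 16.5% fell, 3 passed. Vwf was 4.72-fold lower (-2.24, adjusted p = 0.000335), Plvap 5.15-fold lower (-2.36, adjusted p = 0.000124) and Emcn higher by 0.96 (adjusted p = 0.0276). Emcn passed in 1 of 6 fits that left out one array against inguinal and 0 of 6 against epididymal adipocytes, and Selp in 3 of 6 against inguinal adipocytes. Cdh5 in brown adipocytes lay wholly above inguinal adipocytes without passing (1.14, adjusted p = 0.062), as 18.4% of all genes did lie wholly higher. Between inguinal and epididymal adipocytes 0 of the 10 passed in limma, where 7.71% of all genes did. In that comparison 3 were under an unadjusted p of 0.05, Cdh5, Sele and Selp, a threshold for which no share of all genes is given.

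Among the SVFs 0 of the 10 genes passed between any pair of depots, where 2.38% of all genes passed for brown against inguinal fat, 1.78% for brown against epididymal fat and 0.297% for inguinal against epididymal fat. At an unadjusted p under 0.05 the counts were 7, 1 and 1 of 10 in limma. The shares above are at the adjusted threshold, so these unadjusted counts have no share of all genes beside them. Of the 10 genes, 9 were above 0 for brown against inguinal SVF, and 5 had no overlap (Pecam1, Vwf, Emcn, Esam and Eng, all higher in brown), where 11.2% of all genes lay wholly higher. The largest difference of the 10 was that of Pecam1, with 1.75 (interval 0.67 to 2.82, adjusted p = 0.084). The next was Sele with 1.51 (interval -0.76 to 3.78), and Cldn5 and Esam had 1.30 each. These SVFs were hybridised on different slides, apart from replicate 3. With slide as a random block Pecam1, Emcn and Esam passed (3 of 10), and after normexp background correction 6 of 10 did. The share of all genes that passed under these 2 settings is not given, and 2.38% belongs to the main fit.

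Ordered by group mean, brown SVF ranked first for 7 genes, Cdh5, Cldn5, Emcn, Esam, Pecam1, Sele and Vwf. Epididymal SVF ranked first for Eng, and inguinal adipocytes ranked first for Plvap and Selp. Neighbours in these orders overlapped in their replicates except before the lowest group of Plvap, Vwf and Selp, which is brown adipocytes in each case. Plvap averaged 0.78 ± 0.17 in brown adipocytes and 2.77 ± 0.50 in brown SVF, the next group (SD, n = 3). Vwf averaged 0.85 ± 0.50 in brown adipocytes and 3.06 ± 0.08 in inguinal SVF, the next group (SD, n = 3). Selp averaged -1.80 ± 0.59 in brown adipocytes and -0.90 ± 0.40 in epididymal adipocytes, the next group (SD, n = 3). These Selp groups all but touch, with a highest brown adipocyte level of -1.270 and a lowest epididymal adipocyte level of -1.260. On the second Selp probe brown adipocytes overlapped the next group, epididymal SVF.

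Single arrays stood high or low in their group for most of the 10 genes at once. Brown SVF replicate 1 was the highest of its group for 10 of the 10 genes and brown SVF replicate 2 the lowest for 9, while brown adipocyte replicate 1 was the lowest for 9. In inguinal SVF replicate 3 was the lowest for 7 genes and in epididymal SVF replicate 3 for 8, both on the slide that holds no other replicate of these groups. The leukocyte gene Ptprc had its highest level of inguinal SVF in that replicate 3, with 5.57, against 0.61 and 2.94 in replicates 1 and 2, and the summed lymphocyte level of inguinal SVF ran between 5.01 and 226. The part of leukocytes in these low endothelial levels was not tested. Spots of one probe gave far less spread. The Pecam1 probe, spotted 10 times on each array, had a median spot SD of 0.0539 on the log2 scale.

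Genes beside these 10 were described from lists, given by counts and medians. Other pan-endothelial genes, such as the receptors Kdr, Tie1 and Tek, gave few calls. Of 25 tested, 0 rose and 1 fell in brown fat, 1 rose in inguinal and 1 fell in epididymal fat, with medians of -0.44, -0.10 and -0.31. The genes were Ecscr (-0.99, adjusted p = 0.0398), Nos3, the endothelial nitric oxide synthase (1.20, adjusted p = 0.0359), and Ramp2, a receptor partner of adrenomedullin signalling (-0.81, adjusted p = 0.0426), and Ecscr passed in 2 of 6, Nos3 in 2 of 6 and Ramp2 in 1 of 6 fits that left out one array. Without brown SVF replicate 2 the brown count was 4, and without both libraries that stand apart it was 0. Capillary genes, of which 11 were tested, passed in 0 cases in brown fat in limma (median -0.11), while 2 rose in inguinal fat (median 0.62) and 1 in epididymal fat (median 0.05). The gene common to both is Rgcc, which rose by 1.79 in inguinal (adjusted p = 0.00295) and 1.54 in epididymal fat (adjusted p = 0.00424), and passed in all 6 fits without one array in each. The second, Cd36, a fatty acid translocase of capillaries that adipocytes express as well, rose by 1.07 in inguinal fat (adjusted p = 0.0340) and passed in 2 of 6 fits without one array. Aqp7 is counted in both the capillary and the adipocyte list, and differed by 0.75 in brown fat without passing. The part of adipocyte RNA in the capillary medians was not tested. Gpihbp1, the capillary anchor of lipoprotein lipase, had levels of 6.50, 6.62 and 6.60 in brown adipocytes, against 7.30, 6.02 and 6.71 in brown SVF, a difference of -0.11 (interval -0.80 to 0.59).

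Some genes of arteries and veins fell in brown fat. Of 11 arterial genes 6 fell and 0 rose there (median -1.01, or -0.63 with Bmx at the bound given below). The gap junction gene Gja5 had levels of -2.03, -1.32 and -1.73 in brown adipocytes, against 1.93, 1.31 and 2.25 in brown SVF (difference -3.52, adjusted p = 1.36e-04), and Gja4 differed by -2.29 (adjusted p = 0.000217). Bmx was at least 1.47-fold lower (adjusted p = 0.00855), a bound set from the dimmest signal well above background because Bmx itself was not on any brown adipocyte array, and Hey1 differed by -1.51 (adjusted p = 0.0259, in 2 of 6 fits without one array). In each white depot 1 arterial gene fell, Unc5b in inguinal (-1.42, adjusted p = 0.0478) and Notch4 in epididymal fat (-0.86, adjusted p = 0.0389), each in 1 of 6 fits without one array. The medians there were -0.33 and -0.68. Without brown SVF replicate 3 the brown count fell to 3. The fraction difference of Gja5 in brown fat was itself lower than in epididymal fat (-3.51, adjusted p = 0.00848), and in inguinal fat (-3.22, adjusted p = 0.0170), the second lost without brown SVF replicate 1 or 3 or brown adipocyte replicate 1. Of 8 venous genes 3 fell and 1 rose in brown fat (median -0.98). Nr2f2 (-0.87), Ephb4 (-0.52), Aplnr (-0.61) and Tll1 (-1.08) did not pass there, although Nr2f2 did without both libraries that stand apart. Vcam1, one of the venous genes that fell, is also counted in the list of cytokine-induced genes. The part of other cell types in the Ctsh and Vcam1 differences was not tested. The venule gene Ackr1, the atypical chemokine receptor, had levels of -2.97, -3.00 and -2.01 in brown adipocytes, against 0.79, 0.04 and 0.68 in brown SVF (difference -3.17, adjusted p = 0.000184), while Ctsh, a lysosomal protease, differed by -3.30 (adjusted p = 0.00121) and Vcam1 by -2.83 (adjusted p = 0.000487). The gene that rose is Lrg1 (1.59, adjusted p = 0.0438, in 2 of 6 fits without one array), which also rose in inguinal (3.00) and epididymal fat (2.56). No other venous gene passed in inguinal fat (0 of 8 lower, median -0.32). In epididymal fat 2 fell, Ctsh (-1.89, adjusted p = 0.0290) and Aplnr (-1.66, adjusted p = 0.0189), with a median of -0.86. Each of them passed in 2 of 6 fits without one array, and 0 venous genes fell without epididymal SVF replicate 2 or without epididymal adipocyte replicate 1 or 2.

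**Figure D3:**
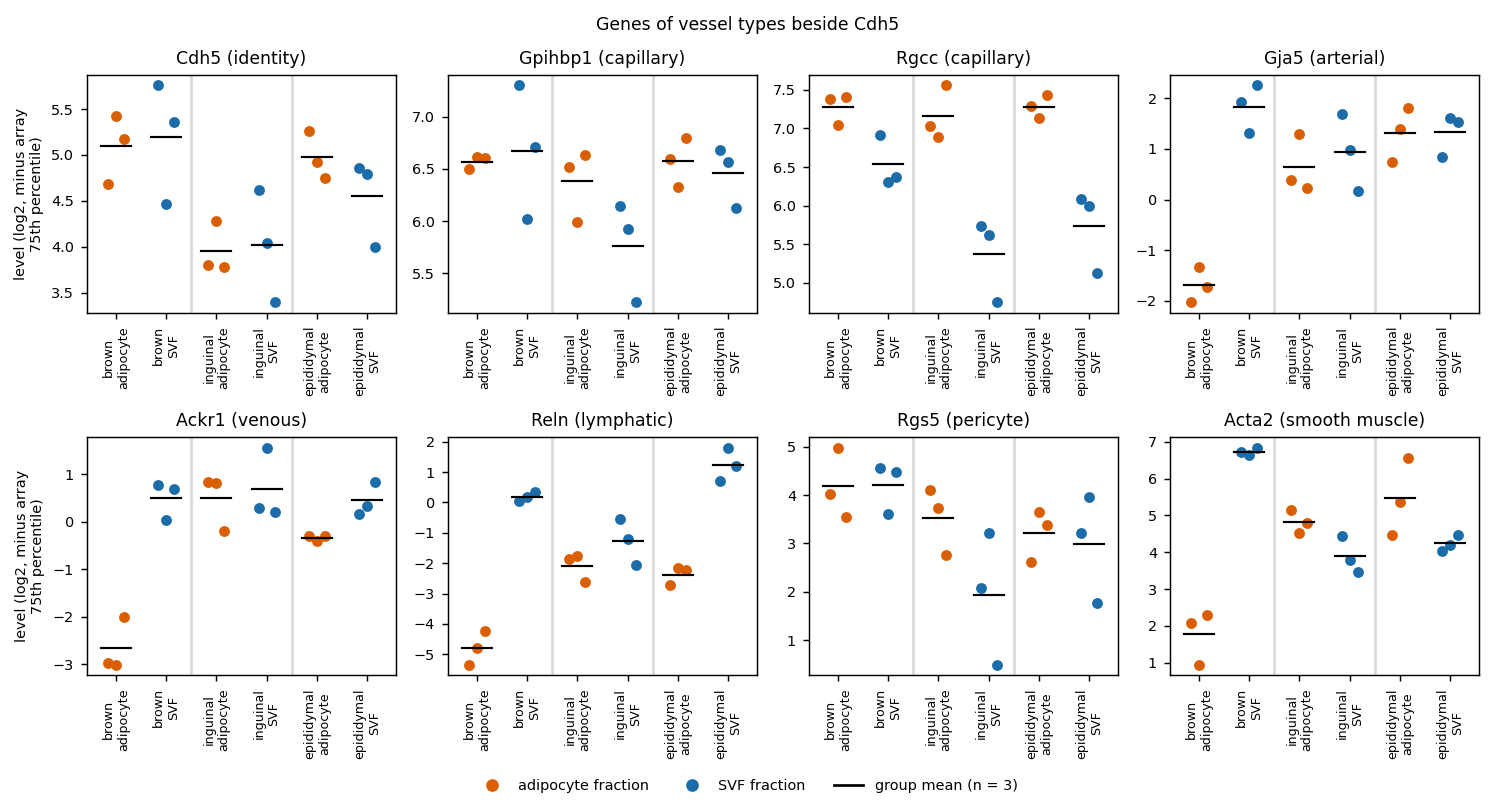
Level (log2, minus the array's 75th percentile) of Cdh5 and of genes of capillaries, arteries, venules, lymphatics, pericytes and smooth muscle on the 18 arrays, adipocyte arrays in orange and SVF arrays in blue, with group means (n = 3) as bars. Gja5, Ackr1, Reln and Acta2 of brown adipocytes lie below the brown SVF, whereas Cdh5, Gpihbp1 and Rgs5 overlap between the brown fractions.

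Lymphatic endothelial genes fell in brown and epididymal fat. Of 8 tested, 7 fell in brown fat and 7 in epididymal fat, with 0 of 8 in inguinal fat, and the median differences were -4.10, -2.75 and -0.73. Without inguinal SVF replicate 3, 4 fell in inguinal fat, and without inguinal adipocyte replicate 2, 2 fell. The brown count was 6 without any one brown array, and also without both libraries that stand apart. The epididymal count ran from 5 to 7 without one array of that depot. In brown fat Lyve1, the hyaluronan receptor of lymphatics that some macrophages also express, was at least 30.0-fold lower (adjusted p = 0.000163), Reln at least 18.5-fold (adjusted p = 7.18e-06) and Prox1, the lymphatic master regulator, at least 1.96-fold (adjusted p = 0.00246), none of them well above background on any brown adipocyte array. With such genes of the list at their bounds the brown median was -3.12. Mmrn1 differed by -4.41 (adjusted p = 0.000127) and Fxyd6 by -4.14 (adjusted p = 0.00032) in brown fat. In epididymal fat Tbx1 differed by -3.71 (adjusted p = 0.000315), Mmrn1 by -3.67 and Reln by -3.62. Mural genes, those of pericytes and smooth muscle, split in brown fat. Of 12, 5 fell and 0 rose (median -0.54), with the smooth muscle actin Acta2 at 2.09, 0.95 and 2.30 in brown adipocytes, against 6.72, 6.63 and 6.84 in brown SVF (difference -4.96, adjusted p = 1.93e-05). The smooth muscle myosin Myh11 differed by -4.72 (adjusted p = 5.04e-06), Tagln by -3.87 and Notch3 by -2.16. Rgs5, a pericyte gene, differed by -0.03 there (interval -1.45 to 1.39). In inguinal fat 4 mural genes rose and in epididymal fat 2, among them the pericyte proteoglycan Cspg4 (2.97 in inguinal and 1.03 in epididymal fat, the second in 0 of 6 fits without one array) and Mcam (2.37 and 1.86). The inguinal count was 2 without inguinal SVF replicate 3 or inguinal adipocyte replicate 1 or 2, and 3 without both libraries that stand apart. The epididymal count was 1 without both of them, and also without any single array of that depot except epididymal adipocyte replicate 1.

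**Figure D4:**
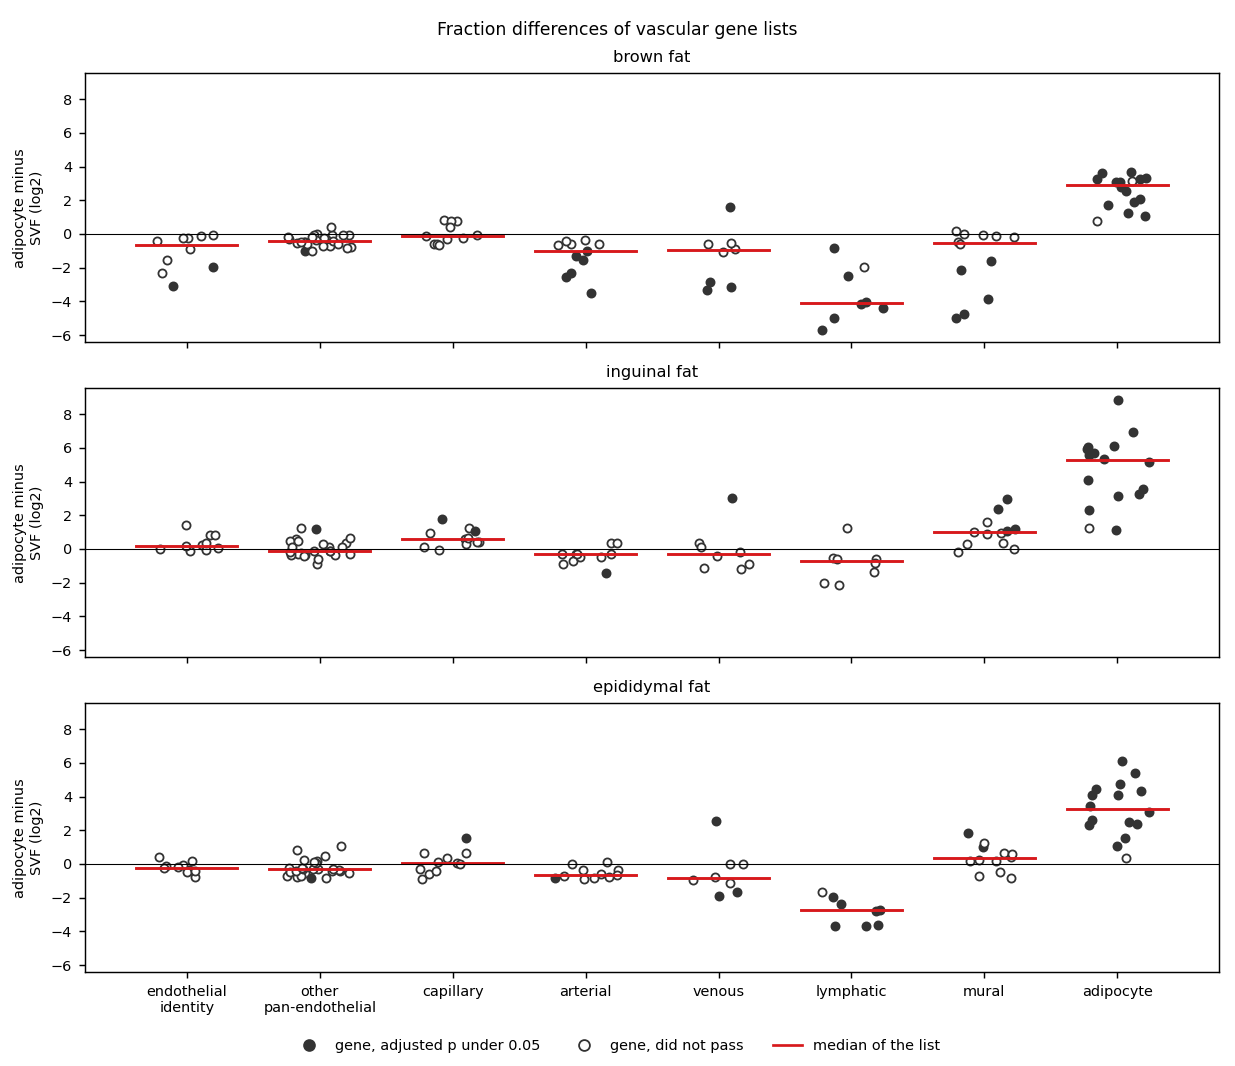
Difference adipocyte minus SVF (log2) of each gene in 8 lists, in brown, inguinal and epididymal fat; filled points have an adjusted p under 0.05 and the red lines are list medians. The medians of the endothelial identity, pan-endothelial and capillary genes lie between -0.67 and 0.62, with Vwf (-3.06) and Plvap (-1.99) of brown fat far below, whereas lymphatic medians reach -4.10 and adipocyte medians 5.25. Aqp7 is counted in both the capillary and the adipocyte list.

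Progenitor and macrophage genes, those of other cells of the SVF, were lower in brown adipocytes. Of 16 genes of progenitors and fibroblasts, 14 fell in brown fat, 11 in inguinal fat and 9 in epididymal fat, with medians of -3.98, -1.71 and -1.85, and Pdgfra, the receptor that marks progenitors, differed by -4.37, -2.30 and -2.23 (each passed). Without both libraries that stand apart the inguinal count was 3. It was also 6 without inguinal SVF replicate 1, 3 without inguinal SVF replicate 2 and 2 without inguinal adipocyte replicate 3. Of 14 macrophage genes, 11 fell in brown fat, 0 in inguinal fat and 1 in epididymal fat, with medians of -3.40, -0.47 and -1.21. The adipocyte list went the other way, with 14, 15 and 15 of 16 genes higher and medians of 2.93, 5.25 and 3.25. Its brown count was 4 without brown SVF replicate 1, 5 without brown adipocyte replicate 3, and 6 without brown SVF replicate 3 or brown adipocyte replicate 1. Its epididymal count was 12 without both libraries that stand apart, and ran from 11 to 15 without one array of that depot. In linear units relative to the 75th percentile, where bright probes weigh most, the summed macrophage level in brown fat was 7.36 to 8.93 in adipocytes, against 37.2 to 61.6 in SVF, and that of progenitors 381 to 450, against 1037 to 1085.

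Platelets carry Vwf and Selp, and some of their other genes fell in brown fat as well. Of 10 platelet and megakaryocyte genes 3 fell in brown fat (median -0.57), or 1 without brown SVF replicate 1, brown adipocyte replicate 1 or brown adipocyte replicate 3, with Pf4, the platelet factor 4, at -0.07, 1.00 and 0.78 in adipocytes, against 3.23, 3.06 and 3.69 in SVF (difference -2.76, adjusted p = 0.0086). The summed platelet level in brown fat was 1.70 to 3.38 in adipocytes, against 9.77 to 14.8 in SVF. In epididymal fat 4 platelet genes rose, by 1.08 to 2.64. The part of platelets, macrophages or mural cells in the Vwf, Selp and Plvap differences was not tested.

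As a description without a test, the level of Cdh5 over the 18 arrays was set beside that of the 19216 other genes. The highest Pearson r was 0.934 for Rarres1, followed by Dock4 (0.914), Spaar (0.909), Myo10 (0.905), Dgkh (0.905), Zfp711 (0.904), Sema6a (0.900), Pkp4 (0.900), Arap3 (0.900) and Slfn5os (0.886), where the median gene had 0.066. The 18 arrays form 6 groups and share slides, so they are not independent points. In the same ranking Emcn stood at 211 (r = 0.748), Pecam1 at 312 (0.716), Esam at 542, Eng at 558 and Cldn5 at 695, while Sele stood at 6701, Selp at 12919, Vwf at 13528 and Plvap at 17071 (r = -0.38). Vwf and Plvap had r = 0.848 with each other, and Sele and Selp 0.770.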

How the data were processed

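The data are 1-colour Agilent mouse arrays, 18 in all, deposited by the authors as scanner files. The processed signal intensity of each spot was computed by Feature Extraction, version 10.5.1.1 for 12 arrays and 9.5.3.1 for 6, per the file headers. The log2 values of the authors' deposited value table, whose column medians lie at 8.12 to 8.13, were used as an alternative. Its scale is log2, while the normalization and any centring behind it are not given in the sources used here. All 18 arrays correlated best with a column of their own group, but only 4 with their own column, so the replicate behind a column is uncertain.

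From the intensities, log2 levels minus each array's 75th percentile were computed here, after control spots were left out and spots of a probe were averaged. A probe was kept if every array of 1 group or more, 3 in each, had it well above background (28595 of 41174 probes), a gene was its brightest kept probe, and 19217 genes were tested. Names came from accessions, symbols or synonyms of the RefSeq table, and 8072 probes kept the array's name. A mean for each of 6 groups was fitted with limma 3.58.1 in R 4.3.3 (lmFit, eBayes), with 12 contrasts and Benjamini-Hochberg adjustment at 0.05. The same kind of fit was also run on simulated data, whose means and spread were taken from the real genes. Tables and figures used Python 3.11.15, pandas 2.3.3 and matplotlib 3.10.9. The number of arrays limits the precision.

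The 10 genes were fixed by name, and from each other list up to 4 genes past the threshold with the largest difference were named, besides a few markers. Ddx3y and Ucp1, outside that rule, were named after their values were seen. Members and lists were chosen with earlier results of these data known. For the lists, fits without each array and without both libraries that stand apart were added after seeing the data. Replicate numbers were checked for pairing by correlating deviations from group means, which gave -0.23 to 0.48 over 9 pairs, 4 of them over 0.1. In epididymal fat all 3 pairs were over 0.1 (0.42, 0.48 and 0.14), and with the replicate block its count of the 10 genes stayed 0. Normexp with an offset of 50 used the median signal, because 12 files do not hold the mean signal column used in the planned setting.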

Additional observations from a re-analysis of the deposited data

Results flagged for a closer look

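For 2 genes the difference between adipocytes and SVF itself differed between depots by the interaction contrast of limma, adjusted over all 19217 genes. For Vwf the brown difference minus the inguinal one was -3.14 ± 0.45 (SE, adjusted p = 0.00254), and minus the epididymal one -2.91 ± 0.45 (adjusted p = 0.00423). In all 3 brown adipocyte arrays Vwf lay below all 3 brown SVF arrays, while the fractions overlapped in both white depots. For Plvap the brown difference minus the inguinal one was -2.00 ± 0.40 (adjusted p = 0.0275), and minus the epididymal one -2.16 ± 0.40 (adjusted p = 0.0120). The white adipocyte arrays were read on slides and days of their own, so the white side of these 4 contrasts cannot be told apart from slide, scan day and software version. The level of Plvap and Vwf in brown adipocytes was also below that of the 6 white adipocyte arrays.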

How the results depend on the processing

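Over all member genes and contrasts, leaving out one array kept direction and call in 877 cases, gained a call in 4 and lost it in 19, and the other settings in 1305, 26 and 17 cases, with 59 changes of sign among differences that never passed. The brown calls of Vwf and Plvap held in every such fit, with Vwf between -3.35 and -2.83 and Plvap between -2.16 and -1.70 without one array. The brown count of 2 became 4 with only the arrays compared, which added Sele and Selp. The interaction count of brown against inguinal fat (2) became 1, Vwf, with normexp, with no filter on dim probes and with only the arrays compared, and ran from 1 to 3 without one array, the highest without inguinal SVF replicate 1, which added Selp. That of brown against epididymal fat (2) became 1 with normexp. For brown against inguinal SVF (0) it was 6 with normexp, 1 with the mean over probes, 3 with slide as a fixed block, 3 with slide as a random block, 2 with scan day as a random block and 1, Pecam1, with the replicate block, and 0 to 1 without one array. For inguinal against epididymal SVF (0) it was 2 with normexp. Where no all-gene count follows below, these counts have no share of all genes under the same setting beside them. Without one array, brown against inguinal adipocytes (4) ran from 2 to 5 and inguinal against epididymal adipocytes from 0 to 1, the highest of both without inguinal adipocyte replicate 3, which added Sele. The replicate block moved no other count of the 10 genes by over 1.5 times. The causes were not tested. Normexp left 2001 calls over all genes in brown fat instead of 4050, 470 instead of 2684 in inguinal and 1678 instead of 4807 in epididymal fat. With only the arrays compared the inguinal count was 252, and without the filter the brown count was 7542. Quantile normalization moved the all-gene median in brown fat to -0.03 from 0.15 and the split of higher and lower calls to 1943 and 1999, against 2446 and 1604, and in epididymal fat to 2923 and 2605, against 3480 and 1327. Slide as a fixed block was not run for contrasts with white adipocytes, since it can be fitted only on the 12 arrays of 3 slides. Dim genes such as Sele are limited by their signal over background.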

Other observations

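Some genes that cytokines induce in endothelium differed between the adipocyte fractions. Of 12 tested, 4 were lower in brown than in inguinal adipocytes, Vcam1 (-2.34, adjusted p = 0.00425), Icam1 (-1.80, adjusted p = 0.0364), the chemokine Ccl2 (-4.97, adjusted p = 0.0120) and Tnfaip3, a brake on NF-kappa B (-2.37, adjusted p = 0.0149), by limma's test over all genes. In inguinal adipocytes 3 of 12 were higher than in epididymal adipocytes, Irf1 (1.82, adjusted p = 0.0152), Socs3 (1.85, adjusted p = 0.0391) and Bcl3 (1.74, adjusted p = 0.0344). Between the fractions, 2 fell in brown fat, Vcam1 and the chemokine Cx3cl1 (-1.20, adjusted p = 0.0325), the second in 2 of 6 fits without one array. Vcam1 is counted among the venous genes as well. The comparisons between adipocyte fractions were not refitted without single arrays for this list, and brown and inguinal adipocytes cannot be told apart from slide, scan day and software version.

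Immediate early genes, which cells switch on within minutes of a stimulus, passed in 0 of 15 cases in brown fat, 4 in inguinal fat and 1 in epididymal fat, all higher in adipocytes, with medians of 0.11, 0.73 and 0.64. Egr2 rose by 1.85 in inguinal adipocytes (adjusted p = 0.0103), without overlap of the fractions. The other 3 inguinal genes, Fosb, Atf3 and Ier2, passed in at most 3 of 6 fits without one array. The inguinal count was 8 without inguinal SVF replicate 1, 2 without inguinal adipocyte replicate 1, and 1 without inguinal SVF replicate 2 or 3 or inguinal adipocyte replicate 3. The single epididymal call remained in 1 of 6 such fits.

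Other lists of cells moved as follows between fractions. Of 12 lymphocyte genes 2 fell in brown fat, 0 in inguinal fat and 1 in epididymal fat, and the brown count was 1 without brown SVF replicate 3. Of 9 neutrophil genes 5 fell in brown fat. In inguinal fat 2 neutrophil genes fell, or 5 without inguinal SVF replicate 1 and 1 without inguinal SVF replicate 2 or inguinal adipocyte replicate 1 or 3. In epididymal fat 4 fell, or 1 without epididymal SVF replicate 1 and 2 without epididymal adipocyte replicate 2. Of 10 mesothelial genes 1 fell in brown fat and 2 in inguinal fat, and 0 fell in inguinal fat without inguinal SVF replicate 1 or inguinal adipocyte replicate 3. Most are near the floor. In brown adipocytes 8 of the 10 were not well above background on any array, among them Krt18, the brown call, and in brown SVF 5. In inguinal adipocytes 4 were not, Wt1, Upk1b, Muc16 and Bnc1, each well above background on 1 inguinal SVF array. The summed mesothelial level of the 3 inguinal SVF arrays ran between 1.64 and 169. The median mesothelial difference in inguinal fat was -2.77, or -1.97 with these 4 dim genes at their bounds. It was 0.54 without both libraries that stand apart, of which inguinal SVF replicate 1 belongs to this depot. Of 5 red cell genes 1 fell in brown fat, or 0 without brown SVF replicate 1 or 3 or brown adipocyte replicate 1. The brown mesothelial call remained in 1 of 6 fits without one array.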
